A study of Mus musculus with 6 samples.

Results

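Molecular chaperones bind proteins that are not yet folded, or that have come unfolded, and let them reach their working shape. Described here are 38 genes of the cytosolic and mitochondrial chaperone machinery in lung group 2 innate lymphoid cells (ILC2s) of the mouse. They were listed by gene symbol, with earlier results of these data known, and all 38 of 38 were among the 16588 genes of the deposited table. RNA was sequenced in 6 libraries, 3 of wild-type (WT) animals labelled C57BL/6 and 3 of animals labelled Cnr2 KO, which lack by label the gene of the cannabinoid receptor CB2. Every animal received IL-33 (recombinant, murine, 0.5 µg a dose) intranasally on 3 days, cells were taken on day 4, and sorted ILC2s spent 18 h in culture, so both groups are of activated cells. An RNA amount of 10 pg is given for every library. The series title names adipose tissue, whereas the sample labels name lung, which is followed here. Ages, the construction of the Cnr2 allele and the number of animals behind each library are not stated in the sources used.

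The label was checked first. Cnr2 transcripts were at 3.99, 3.89 and 3.17 CPM (counts scaled to a common library size by TMM) in the WT libraries and at 7.55, 7.42 and 7.49 CPM in those labelled Cnr2 KO. Cnr2 was thus 2.01-fold higher in the libraries labelled Cnr2 KO (edgeR's adjusted p = 2.11e-05), against the label's direction. These libraries are called KO-labelled below, and every direction is that of the labels. Total counts were 17867541 to 19399819 in 5 libraries and 129617689 in WT replicate 2. Of 14 ILC2 markers, all of them counted, 11 rose, Gata3 and Il1rl1 among them, and Il13 (1.88-fold) and Areg (1.74-fold) fell. Il5, the most abundant, did not pass the test, and the 14 genes summed to 8490 to 9260 CPM in WT against 11654 to 12562 CPM in the KO-labelled libraries. Markers of 12 other cell types were in the table for 41 of 78 genes, and 12 rose and 8 fell of 26 tested. For scale, 33.1% of all 12150 genes tested rose and 33.2% fell. The summed level of these markers was higher in every KO-labelled library than in every WT library for 8 of the 12 lists and lower for 1. Among single genes, WT and KO-labelled values were fully apart in 68.9% of all genes tested. T cell markers summed to 59.4 to 62.4 CPM in WT against 109.7 to 116.6 CPM in the KO-labelled libraries, B cell markers to 19.4 to 21.0 and 52.3 to 55.7 CPM, and endothelial markers, mostly Pecam1, to 106.1 to 114.4 and 39.3 to 40.3 CPM. Il17a, Il17f, Il22 and Batf3 were at 0 counts in the KO-labelled libraries. Krt8 was at 0 counts there too, but also in WT replicate 3. Adgre1 was at 0 counts in WT and at 3, 19 and 16 counts in the KO-labelled libraries. Il17a, Krt8 and Adgre1 were not tested. Ribosomal protein genes held 2.36 to 2.52% of counts in WT and 1.49 to 1.73% in the KO-labelled libraries. Chaperones are made by all cell types, and the part of these differences in the results below was not tested.

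In the cytosol, HSP70 proteins and their J-protein partners bind short exposed stretches of a client protein, prefoldin and the ring-shaped chaperonin CCT (also called TRiC) fold actin and tubulin, and HSP90 with its cochaperones finishes kinases and receptors. Mitochondria hold a set of their own, in which mortalin pulls proteins in and the HSP60 and HSP10 chamber folds them. Many of these genes are targets of HSF1, the transcription factor of the heat shock response, which binds heat shock elements (HSEs) made of inverted GAA units.

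Most chaperone genes were lower in the KO-labelled libraries. Of 38 members, 31 fell, 2 rose and 5 did not pass the test, whereas of all 12150 genes tested 33.2% were lower, 33.1% higher and 66.3% called in either direction (quasi-likelihood test of edgeR, with p adjusted over all genes by Benjamini-Hochberg and called below 0.05). The median log2 fold change of the members was -0.70, against 0.01 for all genes tested. WT and KO-labelled values were fully apart in 33 of the 38 members, as in 68.9% of all genes. Falls were moderate in size: the 31 genes were 1.18-fold to 3.22-fold lower, 30 of them at least 1.2-fold, where 28.3% of all genes were called lower by that much. Neither member that rose did so by 1.2-fold, as 28.2% of all genes did. A change of at least 2-fold was seen in 4 members, against 16.4% of all genes in either direction. Together the members held 2.49 to 2.57% of all counts in WT and 1.501 to 1.56% in the KO-labelled libraries. In bulk RNA, fewer cells with a given transcript and less of it per cell cannot be told apart.

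**Figure D1:**
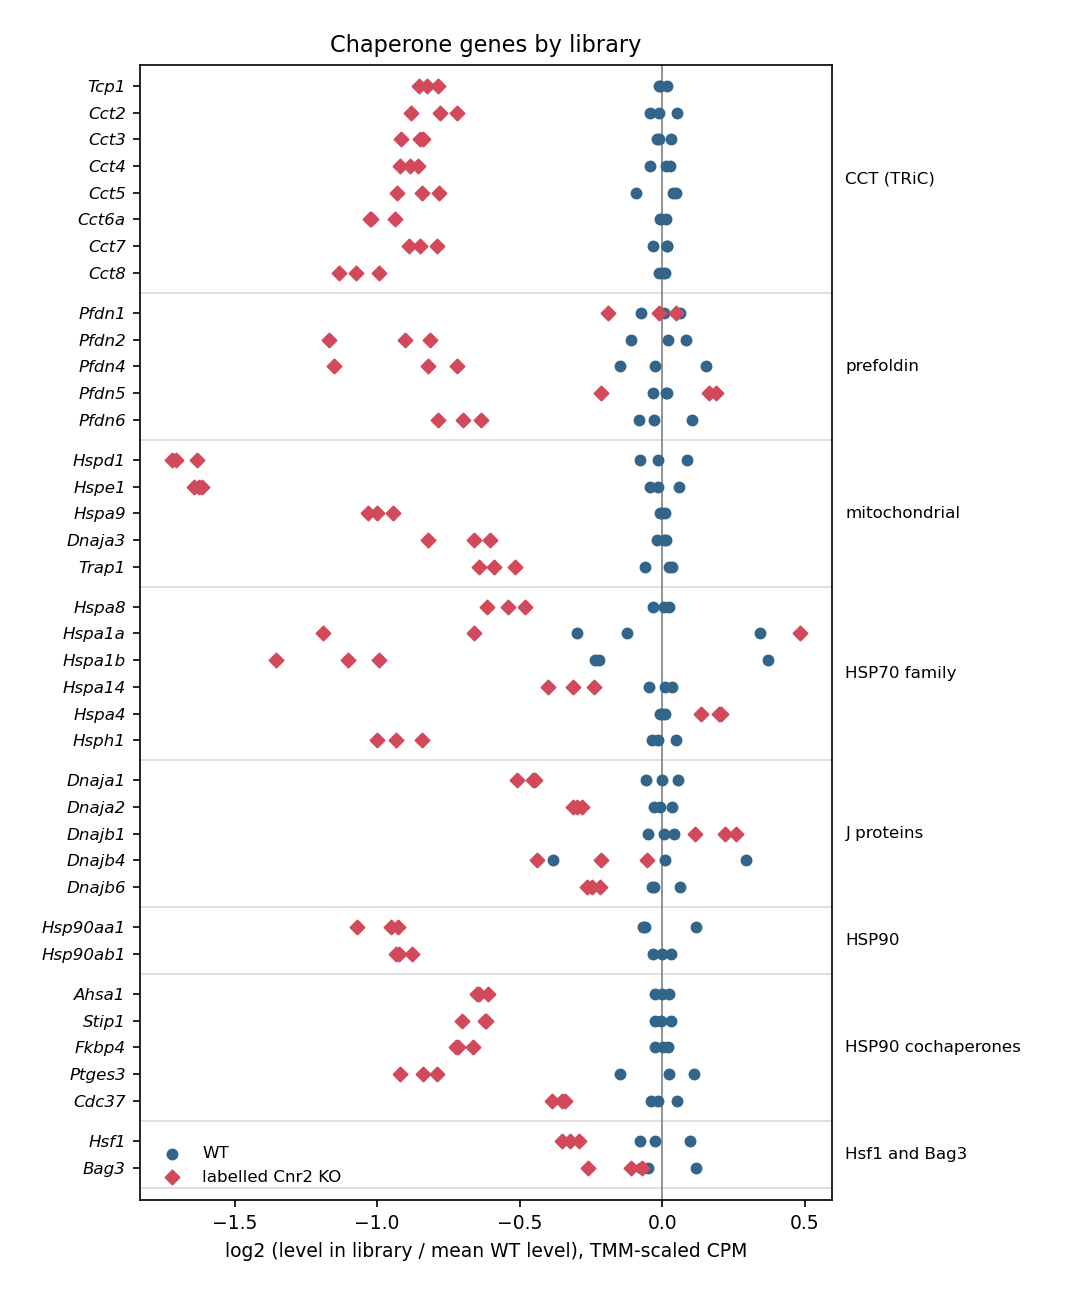
Level of each of the 38 chaperone genes in each library, as the log2 ratio to the mean WT level (horizontal axis, TMM-scaled CPM), with genes on the vertical axis ordered by role. Circles are the 3 WT libraries and diamonds the 3 KO-labelled libraries: diamonds lie left of the circles for 31 genes that fell and right of them for Hspa4 and Dnajb1.

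The HSP60 and HSP10 genes showed the largest falls among the members, and they lie head to head. Hspd1 (ENSMUSG00000025980.14, chromosome 1, 55077835 to 55088243, minus strand, GRCm38) encodes HSP60 and Hspe1 (ENSMUSG00000073676.4, 55088132 to 55091307, plus strand) its lid HSP10. Their annotated starts lie 111 bases apart on opposite strands. The stretch before Hspe1 holds a run of 3 overlapping HSE matches at chr1:55088059-55088076, and the same bases are read on the other strand in 1 of the 2 RefSeq windows of Hspd1 (chr1:55087883-55088182). The other Hspd1 window, at the annotated start given above (chr1:55088194-55088493), holds no match, and the run lies downstream of that start. Matches were sought as GAANNTTC or TTCNNGAA, here called 2-unit elements, where N is any base. Each is its own reverse complement, so that a search of 1 strand covers both, and overlapping matches were counted separately. A 3-unit element is a GAANNTTC and a TTCNNGAA match, in either order, that share 1 unit. The windows printed run from 250 bases before to 50 after a start in RefSeq (GRCm38.p6), 5′ to 3′ on the gene's strand, with the matches in capitals. They are those of Hspe1 (chr1:55087898-55088197, plus strand), of Hsph1 (chr5:149636266-149636565, minus strand), and of Hspa1a (chr17:34972107-34972406, minus strand) and Hspa1b (chr17:34959189-34959488, minus strand). The first is shown for the gene pair with the largest falls, the second for a cytosolic gene with a 3-unit element, and the last pair because its genes can hardly be told apart.
Hspe1: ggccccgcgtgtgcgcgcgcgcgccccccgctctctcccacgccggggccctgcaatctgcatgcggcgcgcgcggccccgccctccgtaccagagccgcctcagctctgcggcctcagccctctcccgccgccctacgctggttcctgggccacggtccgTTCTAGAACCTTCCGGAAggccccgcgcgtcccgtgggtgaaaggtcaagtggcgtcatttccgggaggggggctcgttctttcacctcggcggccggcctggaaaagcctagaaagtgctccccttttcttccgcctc
Hsph1: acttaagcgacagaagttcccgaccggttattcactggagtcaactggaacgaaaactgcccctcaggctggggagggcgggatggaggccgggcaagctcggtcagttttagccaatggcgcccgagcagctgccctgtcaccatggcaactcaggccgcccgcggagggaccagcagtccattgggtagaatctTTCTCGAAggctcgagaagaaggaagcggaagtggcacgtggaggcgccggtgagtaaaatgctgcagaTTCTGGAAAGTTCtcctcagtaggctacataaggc
Hspa1a: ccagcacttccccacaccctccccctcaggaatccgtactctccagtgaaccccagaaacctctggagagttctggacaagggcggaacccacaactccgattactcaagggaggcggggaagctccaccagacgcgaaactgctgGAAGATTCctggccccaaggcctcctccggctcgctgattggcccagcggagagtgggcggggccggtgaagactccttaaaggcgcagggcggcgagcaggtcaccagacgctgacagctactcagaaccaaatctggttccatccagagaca
Hspa1b: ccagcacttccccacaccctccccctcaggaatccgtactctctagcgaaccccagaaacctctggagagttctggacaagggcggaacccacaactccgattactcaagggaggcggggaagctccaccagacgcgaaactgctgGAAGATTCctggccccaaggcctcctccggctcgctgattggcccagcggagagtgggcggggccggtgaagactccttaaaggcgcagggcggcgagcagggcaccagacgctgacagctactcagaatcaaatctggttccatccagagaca

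Of 31 members with a RefSeq window, 14 held a 2-unit element (45.2%), against 16.97% of 27025 genes with a window, and 4 held a 3-unit element (12.9% against 0.66%). Several genes have more than 1 window, and the shared run counts for both Hspd1 and Hspe1. Those with a 3-unit element were Hspd1, Hspe1, Hsph1 and Dnajb6, and all 4 fell (median log2 fold change -1.27). Over all 38 members 31 fell, and over all genes tested 33.2%, which is the scale for this set and those below. Of all members that fell, Hspd1 had the largest fall and Dnajb6 the smallest. Among the 14 members with a 2-unit element, 11 fell and 3 did not pass (median log2 fold change -0.75), and among the 17 without one 14 fell, 2 rose and 1 did not pass (median -0.69). The medians of members with and without the 2-unit letters were thus close. No difference between these sets, the 3-unit set included, was tested. A match describes letters in this window and does not show that HSF1 binds there. No window was found for 7 members: Cct4, Hsf1, Hsp90aa1, Hsp90ab1, Hspa8, Hspa9 and Pfdn1.

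Inside mitochondria, all 5 chaperone genes of the list fell. Hspd1 stood at 960, 1003 and 1077 CPM in the WT libraries and at 307.6, 327 and 310.5 CPM in the KO-labelled ones. Hspe1 was at 122, 120 and 129 CPM in WT against 40.4, 39.6 and 40.1 CPM in the KO-labelled libraries. All WT values of both genes lay well above all KO-labelled values, with log2 fold changes of -1.69 (SE 0.05, edgeR's adjusted p = 1.14e-15) for Hspd1 and -1.62 (SE 0.06, edgeR's adjusted p = 1.57e-14) for Hspe1. The ratio of Hspd1 to Hspe1 counts within a library was 7.85 to 8.37 in WT and 7.61 to 8.25 in the KO-labelled libraries, so its ranges overlapped between the groups.

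**Figure D2:**
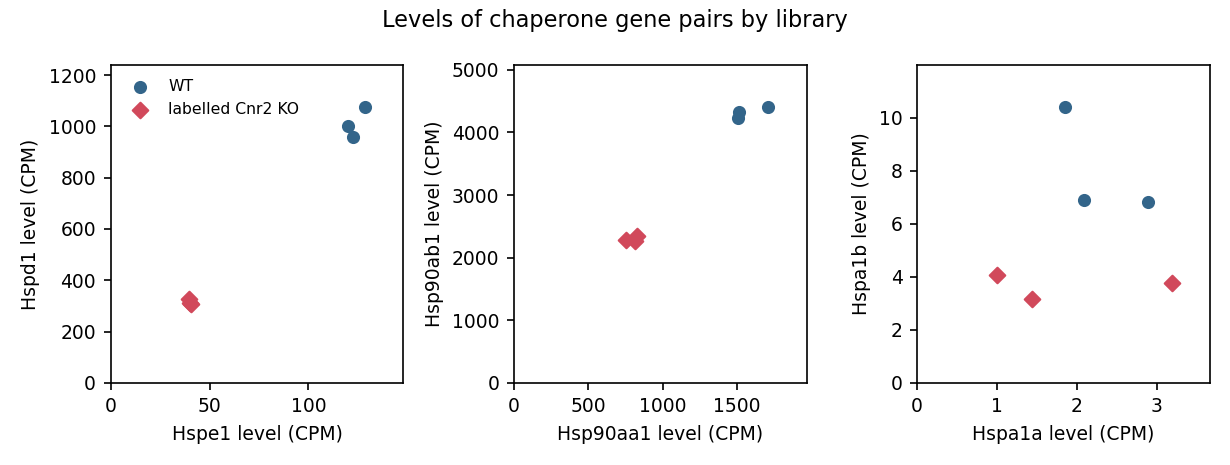
Levels (TMM-scaled CPM) of 3 gene pairs in each library, with WT as circles and KO-labelled libraries as diamonds: Hspe1 and Hspd1, which lie head to head, Hsp90aa1 and Hsp90ab1, and the near-identical Hspa1a and Hspa1b. The first 2 pairs fall into separate groups on both axes, whereas Hspa1a overlaps between groups on the horizontal axis.

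Hspa9 encodes mortalin, the mitochondrial HSP70. Its level was 940, 929 and 934 CPM in WT against 486, 467 and 457 CPM in the KO-labelled libraries, 1.99-fold lower with no overlap (edgeR's adjusted p = 2.11e-13). Dnaja3, the J protein that works with mortalin, was 1.61-fold lower (133.6 ± 1.59 CPM in WT against 82.7 ± 6.35 CPM in the KO-labelled libraries, SD, n = 3 each). Trap1, the mitochondrial HSP90, was 1.495-fold lower, at 190.2 to 203 CPM in WT and 127 to 139 CPM in the KO-labelled libraries. Summed over the 5 genes, mitochondrial chaperone transcripts were at 2359 to 2476 CPM in WT against 1015 to 1057 CPM in the KO-labelled libraries, 0.43 times as high. Among the 8 role groups this was the lowest ratio of summed levels.

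All 8 subunit genes of CCT fell, by 1.73-fold to 2.09-fold. Each of the 8 subunits has its own place in the ring, so the complex needs all of them. Cct8, which encodes the theta subunit, was at 1116, 1134 and 1127 CPM in WT against 534, 566 and 513 CPM in the KO-labelled libraries. Cct2, of the beta subunit, was at 418.5, 428 and 447 CPM in WT against 234, 262 and 251 CPM in the KO-labelled libraries. These subunits marked the ends of the range, with log2 fold changes of -1.07 (SE 0.04) for Cct8 and -0.79 (SE 0.05) for Cct2. Tcp1, the founding alpha subunit, was 1.77-fold lower, Cct3 1.82-fold, Cct4 1.85-fold, Cct5 1.80-fold, Cct6a 1.99-fold and Cct7 1.79-fold. Adjusted p-values of the 8 genes in edgeR were 5.57e-11 or lower, and no WT value overlapped a KO-labelled value in any of them. The sum of the 8 transcripts was 6809 to 7004 CPM in WT against 3645 to 3855 CPM in the KO-labelled libraries.

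Per kilobase of exon, the subunits stood in a similar order in both groups. In WT the highest was Cct5, at 494 ± 26.0 CPM per kb, followed by Cct8 (469 ± 3.78), Cct7 (461 ± 8.67) and Cct3 (438 ± 7.85). Tcp1 (349 ± 3.87) and Cct6a (316 ± 2.39) came next, and Cct4 (224 ± 5.92) and Cct2 (203.9 to 217.6) were lowest. Neighbours in this order whose values overlapped were Cct5 and Cct8, Cct8 and Cct7, and Cct4 and Cct2. In the KO-labelled libraries Cct5 was again highest (273.9 ± 14.1 CPM per kb), but Cct8 (224 ± 11.1) stood below Cct7 (249.04 to 266.8) and Cct3 (239.98 ± 7.14). Values of Cct8 (213.88 to 235.96) and Cct3 (231.8 to 244.98) overlapped, though Cct8 was below Cct3 in each KO-labelled library. Those of Cct5 and Cct7, and of Cct4 and Cct2, overlapped as well. As a share of the summed level per kb, Cct8 held 15.6 to 16.3% in WT and 13.7 to 14.3% in the KO-labelled libraries, and Cct6a 10.6 to 10.8% and 9.93 to 9.98%. Shares add up to a whole, so a lower share of these subunits goes with a higher one elsewhere, and differences in fall between subunits were not tested.

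**Figure D3:**
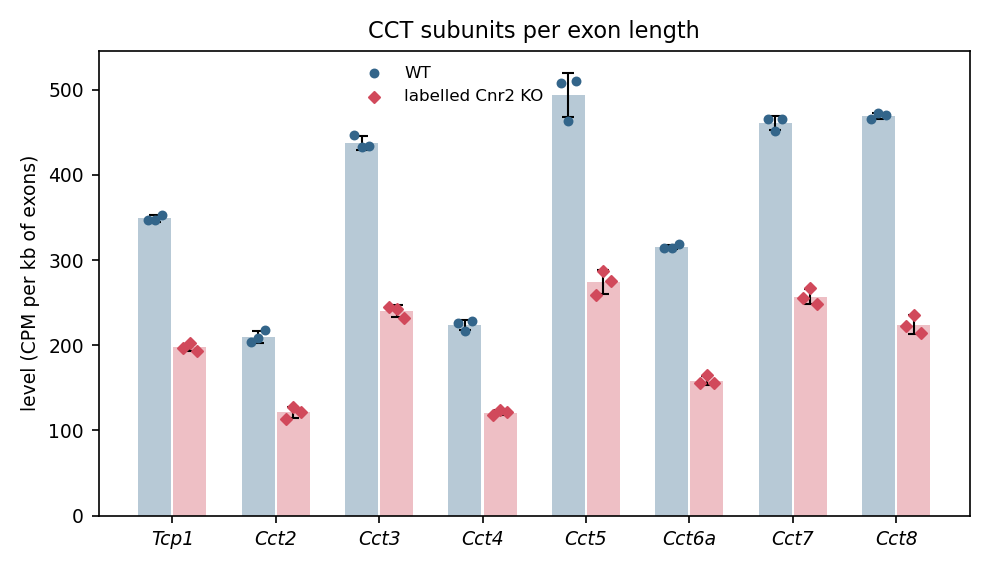
Level of the 8 CCT subunit genes in CPM per kb of exon (vertical axis), with bars at the mean, error bars of 1 SD and points for the 3 libraries of each group (circles, WT; diamonds, KO-labelled). Every subunit is lower in the KO-labelled libraries, and Cct8 drops from 469 to 224 CPM per kb.

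Prefoldin, which hands unfolded actin and tubulin to CCT, split into subunits that fell and subunits that did not pass the test. Pfdn2 was at 23.7, 26.0 and 27.1 CPM in WT against 14.5, 11.4 and 13.7 CPM in the KO-labelled libraries, a log2 fold change of -0.96 (SE 0.10, edgeR's adjusted p = 1.12e-07). Pfdn4 was 1.88-fold and Pfdn6 1.62-fold lower, again with no overlap between groups. By contrast Pfdn1 was at 39.2, 43.1 and 41.5 CPM in WT against 36.2, 42.7 and 41.0 CPM in the KO-labelled libraries (log2 fold change -0.05, SE 0.08, edgeR's adjusted p = 0.562). Pfdn5 was at 30.9, 30.9 and 29.9 CPM and at 26.3, 34.3 and 34.9 CPM (log2 fold change 0.055, SE 0.09, edgeR's adjusted p = 0.619). The groups overlapped for Pfdn1 and Pfdn5. Vbp1, the prefoldin subunit outside the member list, was 1.31-fold lower (edgeR's adjusted p = 2.03e-05). Prefoldin transcripts were scarce next to those of CCT: per kb of exon Vbp1, the most abundant of the prefoldin genes given here, was at 53.3 ± 3.95 CPM in WT, Pfdn6, the highest of the members, at 39.7 ± 2.66 CPM and the least abundant CCT gene, Cct2, at 203.9 to 217.6 CPM.

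Both cytosolic HSP90 genes fell nearly to the same extent. Hsp90ab1, the constitutive form, was at 4322, 4228 and 4412 CPM in WT against 2280, 2350 and 2262 CPM in the KO-labelled libraries. Hsp90aa1, the stress-inducible form, was at 1512, 1504 and 1710 CPM in WT against 751, 829 and 815 CPM in the KO-labelled libraries. Neither gene's groups overlapped, and the log2 fold changes were -0.91 (SE 0.04, edgeR's adjusted p = 1.82e-13) and -0.98 (SE 0.05, edgeR's adjusted p = 6.34e-12). Hsp90aa1 counts were 0.35 to 0.39 times those of Hsp90ab1 in WT and 0.33 to 0.36 times in the KO-labelled libraries. Their longest open reading frames were 75.7% identical in the reference transcripts.

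All 5 HSP90 cochaperones of the list fell as well. Ptges3, which encodes p23 and steadies the closed form of HSP90, was at 269.9, 323 and 304 CPM in WT against 158, 173 and 167 CPM in the KO-labelled libraries, 1.80-fold lower. Fkbp4, which serves steroid receptors, was 1.62-fold lower (439.6 ± 7.30 against 270.4 ± 6.17 CPM). Stip1, which joins HSP70 to HSP90, and Ahsa1, which speeds the HSP90 ATPase, were 1.56-fold and 1.55-fold lower. Cdc37, which brings kinases to HSP90, fell least of the 5, from 305.7 ± 10.0 to 238 ± 3.92 CPM (1.28-fold, edgeR's adjusted p = 1.06e-06).

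Within the HSP70 family 4 genes fell, Hspa4 rose and Hspa1a did not pass the test. Hspa8, the constitutive HSC70 and the most abundant member by counts, was at 5716, 5568 and 5792 CPM in WT against 3718, 4076 and 3917 CPM in the KO-labelled libraries. Its fall was 1.46-fold (edgeR's adjusted p = 7.79e-10), and per kb of exon it stood at 2378 CPM in WT against 1631 CPM in the KO-labelled libraries, the highest of all members in both groups. Hspa14, a ribosome-associated HSP70, was 1.246-fold lower.

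Hsph1 and Hspa4, which are nucleotide exchange factors of HSP70, went in opposite directions. Hsph1 was at 289.99, 294 and 307 CPM in WT against 148, 166 and 156 CPM in the KO-labelled libraries, a 1.90-fold fall (edgeR's adjusted p = 7.19e-12). Its relative Hspa4 was at 844, 839 and 850.5 CPM in WT against 974, 970.2 and 928 CPM in the KO-labelled libraries, a log2 fold change of 0.18 (SE 0.04, edgeR's adjusted p = 7.39e-04). Every KO-labelled value of Hspa4 thus lay above every WT value, although the rise was only 1.13-fold.

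The heat-inducible HSP70 genes were at low levels. Hspa1a and Hspa1b lie 12918 bases apart on chromosome 17, their longest open reading frames were 99.4% identical, and 296 of the 300 promoter bases printed for them were the same, so reads may have been split between them. Hspa1a had 55, 270 and 35 counts in WT and 62, 27 and 18 in the KO-labelled libraries, or 2.89, 2.09 and 1.85 CPM against 3.18, 1.44 and 0.998 CPM. Those values overlapped (log2 fold change -0.25, SE 0.35, edgeR's adjusted p = 0.5385), but without KO-labelled replicate 1 the log2 fold change was -0.88 (SE 0.35, edgeR's adjusted p = 0.0368, against up to 0.916 under the other alternatives). Hspa1b had 6.83, 6.91 and 10.4 CPM in WT against 3.75, 3.15 and 4.05 CPM in the KO-labelled libraries, a log2 fold change of -1.12 (SE 0.19, edgeR's adjusted p = 4.24e-05). With counts of both genes summed, a choice made after seeing the data, the level was 10.3 ± 1.71 CPM in WT against 5.52 ± 1.24 CPM in the KO-labelled libraries, 1.84-fold lower (edgeR's adjusted p = 1.48e-04).

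J proteins, which load clients on HSP70, changed little in size, with a median log2 fold change of -0.27. Dnaja1 was 1.39-fold lower (346 ± 13.2 CPM in WT, 250.2 ± 6.13 CPM in the KO-labelled libraries), Dnaja2 1.23-fold and Dnajb6, known for holding back aggregation, 1.18-fold. Dnajb1, the classical HSP40, rose instead, from 82.3, 84.4 and 79.1 CPM in WT to 98.1, 95.5 and 88.7 CPM in the KO-labelled libraries (log2 fold change 0.20, SE 0.06, edgeR's adjusted p = 5.24e-03). Dnajb4 was among the least abundant members, at 4.96 ± 1.14 and 4.24 ± 0.559 CPM, and did not pass (edgeR's adjusted p = 0.228).

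Hsf1 itself was at 61.0, 58.8 and 66.3 CPM in WT against 48.6, 49.6 and 50.7 CPM in the KO-labelled libraries. It was 1.246-fold lower (edgeR's adjusted p = 3.25e-04) with no overlap between groups. Bag3, a stress-induced HSP70 partner that routes proteins to autophagy, was at 18.1, 17.8 and 20.3 CPM and at 17.9, 15.6 and 17.4 CPM. The Bag3 groups overlapped, and it did not pass (log2 fold change -0.13, SE 0.10, edgeR's adjusted p = 0.231). Small heat shock protein genes were at low levels: Hspb6 was at 4.11 ± 1.36 CPM in WT against 4.24 ± 0.494 CPM in the KO-labelled libraries and did not pass. Hspb1 was at 0.631 ± 0.585 CPM in WT against 0.155 ± 0.223 CPM in the KO-labelled libraries, and like Cryab and Hspb8 it was too low to be tested.

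Immediate early genes, which respond to cell handling together with heat shock genes, moved in both directions. Of 14 listed and 13 tested, 3 rose and 7 fell, where 33.1% of all genes tested rose and 33.2% fell. The median log2 fold change of the 13 was -0.78. Junb was 4.94-fold and Socs3 2.15-fold lower, while Fos and Egr1 were 3.50-fold and 2.95-fold higher. Their part in the chaperone results was not tested.

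Other genes of the same pathways, 70 in 5 lists, moved less uniformly. Of 63 tested, 31 fell, 15 rose and 17 did not pass, and the median log2 fold change was -0.15, against 0.01 for all genes tested. Of all genes tested 33.2% fell and 33.1% rose, which is the scale for each list below. In mitochondria 10 of 12 other folding and quality control genes fell and the other two did not pass (median log2 fold change -0.43). Clpp, the matrix protease, was 2.20-fold lower, its partner Clpx 1.61-fold, the protease Lonp1 1.68-fold and Grpel1, the exchange factor of mortalin, 1.37-fold.

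Among 12 other HSP90 cochaperones 6 fell and 3 rose (median log2 fold change -0.15). Ppid, the cyclophilin CYP40, was 2.78-fold lower (172.3 ± 10.8 against 62.1 ± 3.19 CPM), Nudc 1.77-fold and the phosphatase Ppp5c 1.63-fold. Fkbp5, a glucocorticoid-induced relative of Fkbp4, went the other way, from 191.3 ± 5.47 to 344 ± 14.4 CPM (1.80-fold, edgeR's adjusted p = 1.07e-11). Of 22 other HSP70 and J-protein genes tested 11 fell and 4 rose (median log2 fold change -0.14). Bag2 was 2.47-fold, Hspbp1 1.83-fold and St13, which links HSP70 to HSP90, 1.65-fold lower, whereas Dnajc9, a histone chaperone, was 1.53-fold higher.

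The list of tubulin folding cofactors, CCT helpers outside the ring and further prefoldin genes was mixed. Of 11 tested 6 rose and 3 fell (median log2 fold change 0.18). The 3 that fell were Vbp1, given above with prefoldin, a prefoldin-like gene and a CCT helper. No tubulin cofactor fell. At 1.2-fold or more 3 rose and 3 fell, and the number called higher was 4 in 6 of the 14 alternatives. Pdcl, a phosducin-like partner of CCT, was 1.39-fold higher, and the tubulin cofactors Tbcb and Tbce 1.251-fold and 1.28-fold. Of 6 small heat shock and HSF-related genes tested 2 rose and 1 fell (median log2 fold change 0.10): Hsf4 was 2.95-fold higher at 0.491 ± 0.0297 and 1.44 ± 0.193 CPM, Hsbp1 1.16-fold higher and Hikeshi 1.254-fold lower. The call of Hsbp1 was lost without WT replicate 3 (edgeR's adjusted p = 0.05001) and without KO-labelled replicate 2 (edgeR's adjusted p = 0.0922). Hsf2 was at 2.77 ± 0.0869 and 2.53 ± 0.164 CPM and did not pass.

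Folding genes of the endoplasmic reticulum, set beside the members for scale, were mixed, where 33.2% of all genes tested fell and 33.1% rose. Of 16 tested 7 fell, 4 rose and 5 did not pass, with a median log2 fold change of -0.04 against -0.70 for the cytosolic and mitochondrial members. This difference between lists was not tested. Hspa5 (BiP), the HSP70 of that compartment, was 1.37-fold lower, and Creld2 and Canx 1.34-fold and 1.26-fold lower. The disulfide isomerase Pdia3 was 1.75-fold higher. Hsp90b1, the HSP90 of that compartment, was at 2148 ± 33.0 CPM in WT against 2094 ± 35.7 CPM in the KO-labelled libraries and did not pass (edgeR's adjusted p = 0.42), whereas both cytosolic HSP90 genes fell.

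**Figure D4:**
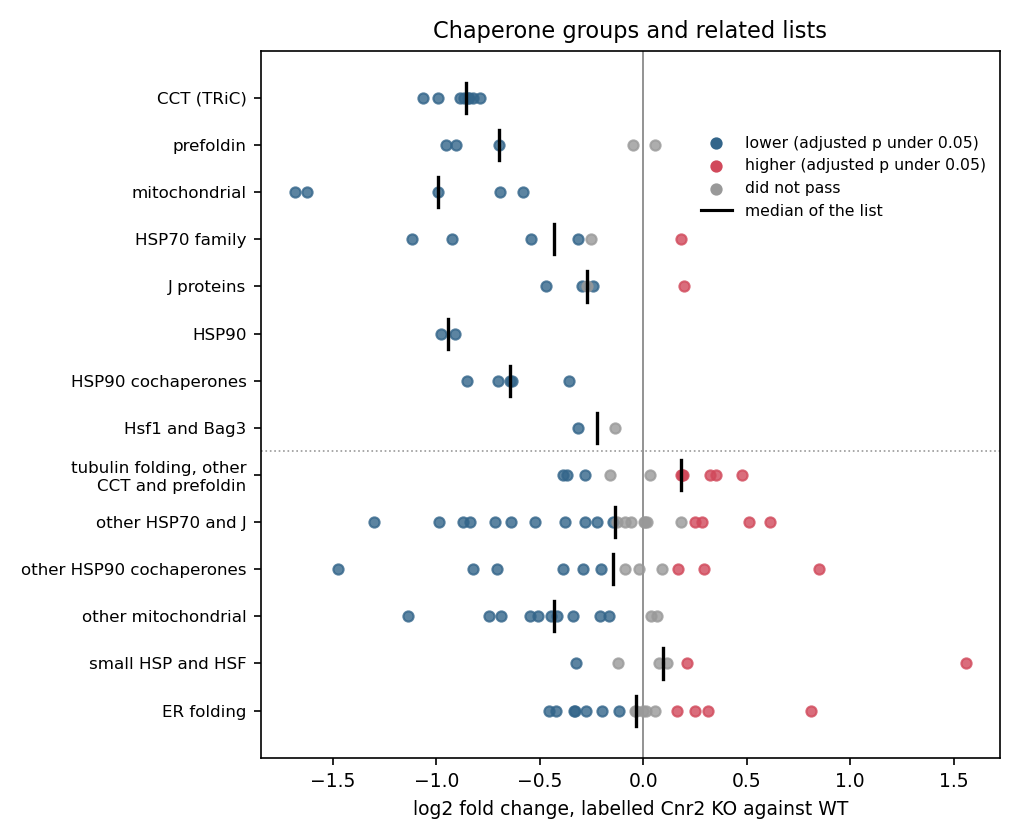
Log2 fold change of each tested gene (horizontal axis, KO-labelled against WT) by list (vertical axis), with the 8 role groups of the members above the dotted line and related lists below it. Vertical bars mark medians: CCT, HSP90 and mitochondrial chaperones have medians of -0.86, -0.95 and -0.99, and folding genes of the endoplasmic reticulum (ER) -0.04.

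Exons of 14 members overlap those of another annotated gene, such as Acat3 for Tcp1 and Psph for Cct6a, and the sources used do not give the strand setting of the counting, so their reads cannot be told apart there. The other 24 members have no such overlap, and 19 of these 24 fell. Over all 38 members 31 fell, and 33.2% of all genes tested were called lower.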

How the data were processed

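The authors deposited 1 table of expected counts, estimated reads per gene and library that need not be whole, with no scaling. The submitters' processing notes name Partek 10.0, STAR 2.7.8, DESeq2 and mm10, with no role or order, and the counting method is not given in the sources used here. Values were rounded and tested by quasi-likelihood in edgeR 4.0.16 (R 4.3.3, TMM scaling, filterByExpr with minimum count 10 and minimum total 15, genotype the only term), which kept 12150 genes. The script was tested on simulated data. Levels are TMM-scaled CPM as mean ± SD over 3 libraries, and each SE was derived from the log2 fold change and the F statistic. Levels per kb use exon lengths of GENCODE M21 (GRCm38, the build named mm10). Members and lists were chosen with earlier results of these data known. Named are members that changed at least 1.2-fold or belong to a complex described by subunit, and the up to 4 genes of each other list with the smallest p. The others named (Hspa4, Dnajb1, Dnajb6, members that did not pass, Hsp90b1, the small heat shock genes, and Il5, Il13, Areg, Gata3 and Il1rl1) were added after their values were seen. So were the single markers of other cell types. Whether the replicates are separate animals is not stated in the labels, and the p-values then cover just the spread among these libraries, possibly technical. Alternatives were another scaling, 2 other filters, a replicate block, DESeq2 1.42.0, limma-voom (limma 3.58.1), thinning of WT replicate 2, an offset for GC content and length, leaving out each library, and the summed Hspa1a and Hspa1b counts.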

Additional observations from a re-analysis of the deposited data

How the results depend on the processing

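Counts of members called kept their direction and stayed within 1.5 times under all 14 alternatives run: 31 to 32 fell and 2 rose, and leaving out each library gave 31 to 32 and 2. Of 532 single values of members under these alternatives, 531 stayed on the same side of the threshold in the same direction where called, 0 reversed, and Hspa1a passed without KO-labelled replicate 1. For all genes, 3670 to 4104 were called higher and 3683 to 4368 lower. The median log2 fold change of the members was -0.65 with the offset for GC content and length and -0.70 with the replicate block. With the replicate block 31 members fell and 2 rose, and 4061 genes were higher and 4113 lower among all genes. Deviations from the group means correlated at 0.087, 0.016 and 0.067 between libraries of the same number, each library correlating best with its own number, which is a hint from the data and not the design. Among the related lists, 2 other HSP70 and J-protein genes rose with the GC and length offset, against 4. Hspa1a, with 18 to 62 counts in 5 libraries, had an SE of 0.35 on its log2 fold change.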

Other observations

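The members were abundant and of moderate length. Their median level was 255 CPM, against 28.2 CPM for all genes tested, and 22 of 38 lay among the 10% of genes with the highest levels per kb of exon. Median exon length was 2432 bases for the members and 3206 for all genes, and median GC content 47.4% and 49.4%. Of the 769 tested genes with at least the members' median level, 45.5% fell and 39.3% rose, with a median log2 fold change of -0.04. Of the 19 members at that level 18 fell and 1, Hspa4, rose, with a median of -0.84, and the members below it had a median of -0.58. Across the 38 members, which share their libraries, level and log2 fold change had a Spearman correlation of -0.31, and across all genes tested of -0.08. Genes are not independent replicates, so these values are a description.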
